A study of Mus musculus with 2 samples.

Results

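The 10 genes described here are the osteoclast genes Acp5, Ocstamp, Dcstamp, Nfatc1 and Oscar, the RANK axis genes Tnfsf11, Tnfrsf11a and Tnfrsf11b, and the bone sialoprotein genes Spp1 and Ibsp. They were picked by name from a table of 20003 genes, with their ratios between the libraries in view, and all 10 were found. The series held 2 libraries of messenger RNA from cultures labelled RAW 264.7, a mouse macrophage line that can form osteoclasts when it is given RANKL. Both cultures had been given macrophage colony-stimulating factor (M-CSF, 20 ng/mL) and interleukin 4 (IL-4, 10 ng/mL), the treatment behind the label M2, in medium with 10% serum. In 1 library, labelled M2+GANT61, the cells had received GANT61 at 10 µM, an inhibitor of the GLI transcription factors of Hedgehog signalling, and in the other, labelled M2+DMSO, the solvent. Either agent was added 4 h before IL-4, whose time of action the labels give both as 15 min and as 24 h. With 1 library per group no difference has a replicate check, so no p-value is given, and 95% intervals cover counting error only.

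Osteoclasts are large cells with several nuclei that form by fusion of cells of the monocyte and macrophage lineage and dissolve bone. The ligand RANKL, encoded by Tnfsf11, binds the receptor RANK, encoded by Tnfrsf11a, on their precursors, and the soluble decoy receptor osteoprotegerin, encoded by Tnfrsf11b, captures RANKL first. RANK signals through the adaptor TRAF6 to NF-kappaB and AP-1 and then to NFATc1, the factor that switches on the fusion, acid and protease genes. Osteopontin (Spp1) and bone sialoprotein (Ibsp) are acidic secreted proteins of the SIBLING family, which bind integrins and mineral. Macrophages make much osteopontin, while bone sialoprotein is best known from bone and other mineralising tissue.

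Upstream sequences are shown for 4 of the genes: for Spp1 and Ibsp, of the same gene cluster, because their ratios were opposite, for Oscar because its ratio was the highest of the 10, and for Tnfsf11 because it encodes the ligand. Each line gives the 250 bases before a RefSeq transcript start (GRCm38.p6, the mm10 build), 5′ to 3′ on the gene's strand, and capitals mark every match to the motifs named in the next paragraph.
Spp1, chr5:104434861-104435110, plus strand: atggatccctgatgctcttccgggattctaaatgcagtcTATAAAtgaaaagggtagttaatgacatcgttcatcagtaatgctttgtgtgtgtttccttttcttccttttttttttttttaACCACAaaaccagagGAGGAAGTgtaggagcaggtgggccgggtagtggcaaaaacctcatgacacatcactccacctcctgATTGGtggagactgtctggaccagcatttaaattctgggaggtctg
Ibsp, chr5:104299037-104299286, plus strand: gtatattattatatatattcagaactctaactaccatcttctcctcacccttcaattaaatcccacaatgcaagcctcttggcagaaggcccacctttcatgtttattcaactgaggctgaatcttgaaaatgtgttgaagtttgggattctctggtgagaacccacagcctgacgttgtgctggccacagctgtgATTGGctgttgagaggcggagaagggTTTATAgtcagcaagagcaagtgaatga
Oscar, chr7:3616158-3616407, minus strand: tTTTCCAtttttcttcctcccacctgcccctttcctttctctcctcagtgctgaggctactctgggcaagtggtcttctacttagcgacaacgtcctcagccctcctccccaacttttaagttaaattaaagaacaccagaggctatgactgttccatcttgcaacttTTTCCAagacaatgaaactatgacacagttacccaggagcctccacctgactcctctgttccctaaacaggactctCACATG
Tnfsf11, chr14:78308044-78308293, minus strand: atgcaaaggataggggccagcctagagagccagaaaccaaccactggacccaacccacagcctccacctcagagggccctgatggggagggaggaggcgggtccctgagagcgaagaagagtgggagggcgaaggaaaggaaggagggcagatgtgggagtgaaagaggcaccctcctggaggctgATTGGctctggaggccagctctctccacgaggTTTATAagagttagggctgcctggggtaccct

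Of the 10 genes, 6 matched the RefSeq promoter table, with 9 transcript starts, and 8 motifs were searched on both strands. No motif's letters hold those of another. The reversed CCAAT box ATTGG began at position -46 from the start of Spp1, at -54 in Ibsp and at -64 in Tnfsf11, and 33.8% of all 32851 windows of this length hold it. The letters of the TATA box, TATAAA, read on the reverse strand, began at -28 in Ibsp and at -32 in Tnfsf11. In Spp1 the same letters were on the forward strand at -211, far upstream of those positions. TATAAA is in 12.4% of the windows. The Spp1 window also held the PU.1 site GAGGAAGT at -113, present in 2.44% of the windows, and the RUNX site ACCACA at -128, present in 14.0%. In the Oscar window the NFAT core TGGAAA, read on the reverse strand, began at -249 and -82, and the E-box CACATG, which MITF can bind, at -6. These letters are in 18.6% and 12.3% of the windows. Neither motif was particular to Oscar among the 9 windows. An Acp5 window that is not printed held the NFAT core at -117 and the E-box at -90. The window of another Spp1 start, also not printed, held the NFAT core at -203. The AP-1 site TGANTCA and the GLI site GACCACCCA, in 6.75% and 0.225% of the windows, were in none of the 9. A match describes the letters of these windows and is no measure of binding.

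The libraries held 57705874 reads (GANT61-labelled) and 61632784 reads (DMSO-labelled). Calls of higher or lower rest on size alone. They need a ratio of scaled reads of at least 1.5 or at most 0.667 and a counting interval that excludes 1. They also need a mean level at or above a floor of 1 CPM (counts per 1000000 reads of the scaled library size). By this rule of size 14.1% of the 13939 genes at or above this floor were higher in the GANT61-labelled library and 10.3% were lower. Macrophage markers were present, but so were abundant markers of epithelium, fibroblasts, adipocytes, endothelium and lymphocytes, which a macrophage line alone would not be thought to hold. The labelled cell type is therefore in doubt, the ratios below cannot be read as those of macrophages alone, and the libraries are named by their labels. All 11 macrophage markers were higher in the GANT61-labelled library, with a median log2 ratio of 1.07 and a summed level of 8141 CPM against 2668 CPM. Lyz2, a lysozyme, was at 2477 and 1177 CPM and Mrc1, the mannose receptor, at 2011 and 363 CPM. All 7 adipocyte markers were lower, with a median of -2.73 and a summed level of 733 against 5005 CPM (Car3 at 294 and 2207 CPM, Fabp4 at 286 and 1802 CPM). Fibroblast markers summed to 5586 and 5788 CPM, epithelial to 2907 and 3335 CPM, endothelial to 497 and 580 CPM, T cell to 149.6 and 150.3 CPM, B cell to 110 and 101 CPM and neutrophil to 670 and 138 CPM. Sums are led by the most abundant genes. Of 8 fibroblast markers 0 were higher and 1 was lower, with a median log2 ratio of 0.11. Of 8 epithelial markers 1 was higher and 2 were lower, with a median of -0.16. Of 7 endothelial markers 0 were higher and 3 were lower, with a median of -0.38. No T cell or B cell marker was called. Of the 7 neutrophil markers, 3 were above the floor, all of them higher, and 4 were below it. The ratios of these 4 did not share one direction. In these 8 lists no measured marker was at 0 in either library. In bulk RNA, fewer cells of a type and less RNA per cell cannot be told apart, and the part of these cell types in the ratios below was not tested.

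Of the 10 genes, 6 were higher in the GANT61-labelled library, 1 was lower and 3 were neither. Since the genes were chosen with this contrast known, the counts describe them and are no evidence of a tendency. The higher genes were Acp5, Ocstamp, Dcstamp, Tnfrsf11a, Tnfsf11 and Spp1, and the lower gene was Ibsp. Nfatc1 and Tnfrsf11b had ratios above 1 but under the threshold, and Oscar had the highest ratio at a mean level of 0.963 CPM, just under the floor. The median log2 ratio of the 10 was 1.22, and that of the 9 above the floor 0.90, beside -0.01 over all 13939 genes.

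**Figure D1:**
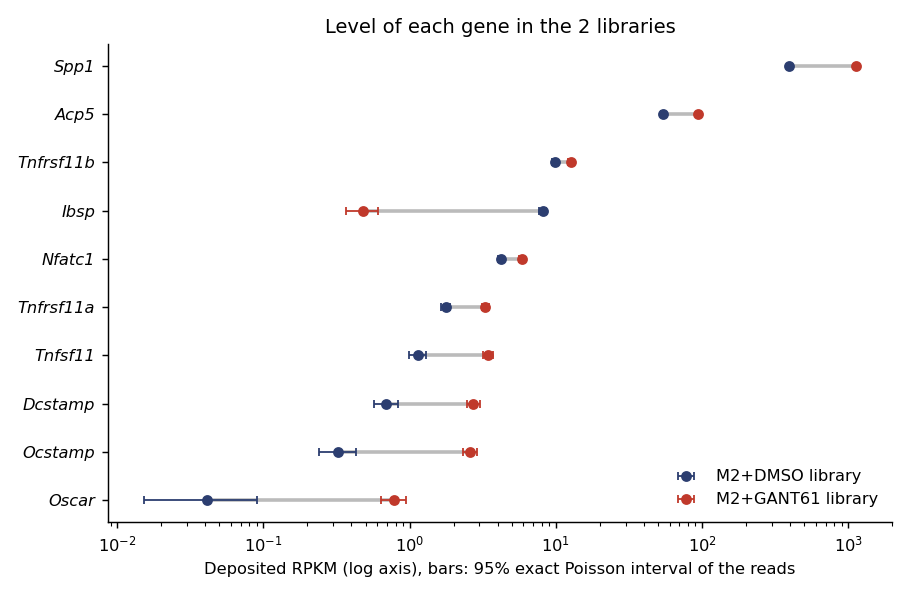
Deposited RPKM of each of the 10 genes on a log axis, with blue points for the M2+DMSO library, red points for the M2+GANT61 library and bars for the 95% exact Poisson interval of the reads. Spp1 lies far above the other genes in both libraries (395 and 1137 RPKM), and Ibsp is the only gene of the 10 whose red point lies to the left of the blue one.

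In RPKM (reads per kilobase of gene model per 1000000 library reads), the unit that allows levels of different genes to be compared, the genes spanned a wide range. Spp1 ranked 32nd of the 20003 genes in the GANT61-labelled library and 137th in the DMSO-labelled one. Acp5 came next at ranks 603 and 1140, and then Tnfrsf11b at ranks 4766 and 5698. The order below these differed between the libraries. Ibsp came next after Tnfrsf11b in the DMSO-labelled library and was last of the 10 in the GANT61-labelled one. In the GANT61-labelled library, Tnfsf11 at 3.44 RPKM (3.16 to 3.74) and Tnfrsf11a at 3.29 RPKM (3.10 to 3.48) lay within each other's counting intervals, as did Dcstamp at 2.73 RPKM (2.47 to 3.01) and Ocstamp at 2.59 RPKM (2.33 to 2.87). The spread between cultures is unknown for all of them.

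RANKL itself was low and differed most within its axis. Tnfsf11 (chromosome 14, 78277445 to 78308043, minus strand, mm10) had 553 reads in the GANT61-labelled library and 200 in the DMSO-labelled library, or 9.73 and 3.20 CPM. Its ratio was 3.04 (2.59 to 3.60), and 2.80% of the genes above the floor had a higher one. Tnfrsf11a, the receptor RANK (chromosome 1, 105780718 to 105847981, plus strand), had 1188 and 699 reads, or 20.9 and 11.2 CPM, a ratio of 1.87 (1.70 to 2.06). The decoy receptor gene Tnfrsf11b (chromosome 15, 54250619 to 54278484, minus strand) had 2559 and 2177 reads, or 45.0 and 34.8 CPM, a ratio of 1.29 (1.22 to 1.37) that did not reach the threshold. All 3 genes of the axis thus had more scaled reads in the GANT61-labelled library, in the order ligand, receptor, decoy.

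The balance of ligand and decoy differed accordingly. The decoy exceeded the ligand in both libraries, 3.67 times by RPKM in the GANT61-labelled library and 8.63 times in the DMSO-labelled one. The quotient of Tnfsf11 to Tnfrsf11b was therefore 2.35 times as high in the GANT61-labelled library (1.98 to 2.81). This quotient does not depend on how the libraries are scaled. Tnfsf11 against the receptor Tnfrsf11a gave an RPKM quotient of 1.05 and 0.643, a change of 1.62 times (1.34 to 1.97). RANKL is made by stromal and mammary epithelial cells and by activated T cells, and osteoprotegerin by stromal cells. General markers of fibroblasts, epithelium and T cells were present in both libraries at the levels given above. Whether the epithelium was mammary or the T cells were activated was not tested. Which cells expressed the 3 genes was not tested.

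Nfatc1, the factor downstream of RANK, had a smaller ratio than Acp5, Dcstamp, Ocstamp and Oscar, osteoclast genes that it is known to control. It had 3111 and 2460 reads, or 54.7 and 39.3 CPM, a ratio of 1.39 (1.32 to 1.47). This is below the threshold, and 17.4% of the genes above the floor had a higher ratio. Its log2 ratio of 0.48 was 0.60 below the macrophage marker median of 1.07.

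The fusion genes had low levels and large ratios. Ocstamp and Dcstamp encode related membrane proteins needed for osteoclast precursors to fuse. Ocstamp (chromosome 2, 165393760 to 165400405, minus strand) had 364 reads in the GANT61-labelled and 50 in the DMSO-labelled library, or 6.41 and 0.799 CPM, a ratio of 7.95 (5.95 to 11.0). Only 43 genes above the floor had a higher one. Dcstamp (chromosome 15, 39745930 to 39760938, plus strand) had 403 and 112 reads, or 7.09 and 1.79 CPM, a ratio of 3.95 (3.21 to 4.93). The counting intervals of these 2 ratios did not overlap, and the quotient of Ocstamp to Dcstamp was 2.01 times as high in the GANT61-labelled library (1.39 to 2.97). In the DMSO-labelled library Dcstamp was 2.13 times the level of Ocstamp by RPKM, and in the GANT61-labelled library 1.05 times.

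Oscar, an immunoreceptor of osteoclasts and myeloid cells that costimulates RANK signalling, was close to undetected in the DMSO-labelled library. Oscar (chromosome 7, 3609813 to 3616157, minus strand) had 6 reads there and 104 in the GANT61-labelled library, or 0.0959 and 1.83 CPM. Its ratio of 17.7 had the widest interval of the 10 genes (8.48 to 53.2). It passed the size and interval parts of the rule and missed the floor of 1 CPM. With no floor it was called higher.

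Acp5, the tartrate-resistant acid phosphatase used to stain osteoclasts and also found in macrophages, was the most abundant of the osteoclast genes among the 10. Acp5 (chromosome 9, 22126727 to 22135711, minus strand) had 10885 and 6878 reads, or 191.5 and 109.9 CPM, a ratio of 1.74 (1.69 to 1.80). Its log2 ratio of 0.80 was 0.27 below the macrophage marker median, as that of Tnfrsf11a was 0.17 below. Ocstamp, by contrast, lay 1.92 above that median, Dcstamp 0.91, Tnfsf11 0.53 and Spp1 0.46. The log2 ratios of the 11 macrophage markers themselves ran from 0.71 to 3.17, a range that holds those of all these genes. In the annotation 6.75% of the exonic bases of Acp5 also lie in a transcript of the opposite strand, and whether the counting used strand was not given in the sources used here.

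**Figure D2:**
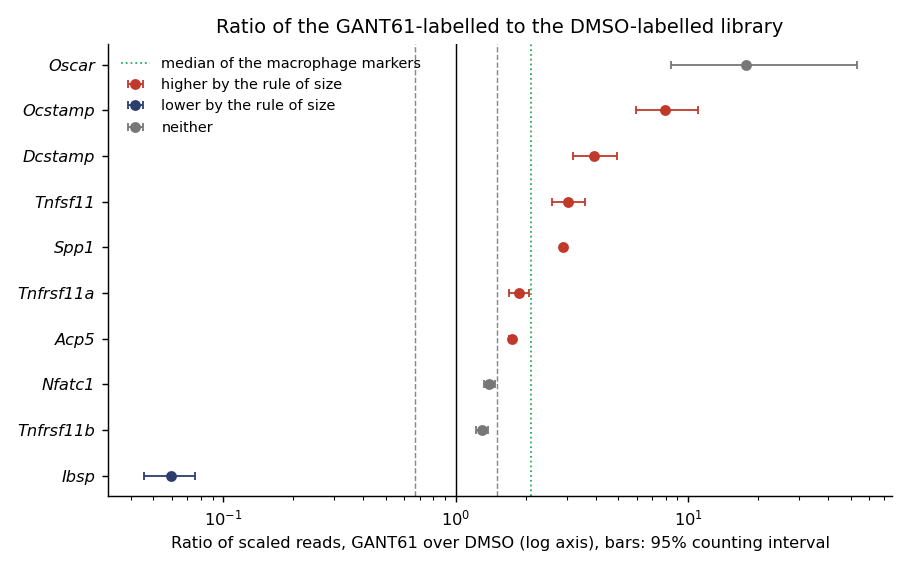
Ratio of scaled reads, GANT61-labelled over DMSO-labelled library, for each of the 10 genes on a log axis with 95% counting intervals; dashed lines mark ratios of 1.5 and 0.667, and the dotted line the median of 11 macrophage markers. Ibsp at 0.0593 stands alone to the left of 1, and Oscar at 17.7 has the widest interval.

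The bone sialoproteins had opposite ratios. Spp1 had 135569 reads in the GANT61-labelled library and 51629 in the DMSO-labelled library, or 2386 and 825 CPM. This was 0.235% and 0.0838% of all reads. Its ratio was 2.89 (2.86 to 2.92), and 3.08% of the genes above the floor had a higher one. Ibsp had 67 reads in the GANT61-labelled and 1253 in the DMSO-labelled library, or 1.18 and 20.0 CPM. Its ratio was 0.0593 (0.0453 to 0.0753), or 16.9 times lower (13.3 to 22.1), and only 9 of the 13939 genes had a lower one. Spp1 exceeded Ibsp 49 times by RPKM in the DMSO-labelled library and 2386 times in the GANT61-labelled one, so the quotient differed 48.8 times (38.4 to 63.8). In the annotation 18.8% of the exonic bases of Spp1 also belong to a gene model of the same strand that is absent from the count table.

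**Figure D3:**
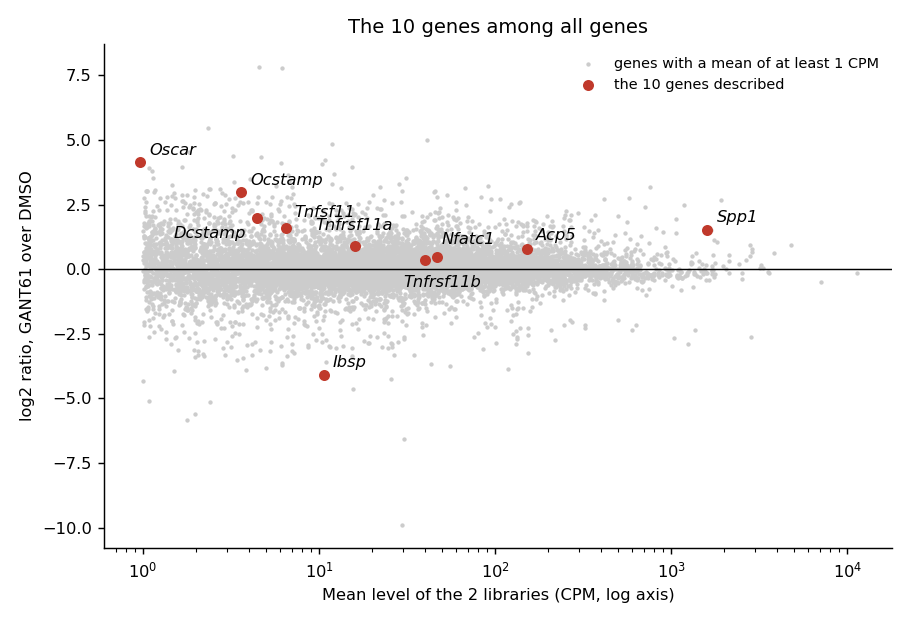
Mean CPM of the libraries (log axis) against the log2 ratio, GANT61 over DMSO, for all 13939 genes averaging 1 CPM or more in grey and the 10 genes described in red. Ibsp lies near the lower edge at -4.08 and Spp1 at 1.53 among the most abundant genes, while Tnfrsf11b and Nfatc1 lie inside the grey band.

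Spp1 and Ibsp lie in the SIBLING gene cluster with Mepe between them, and the genes of this cluster did not share one direction. Spp1 lies on chromosome 5 at 104435118 to 104441050 and Ibsp at 104299171 to 104311469, both on the plus strand (mm10), 124 kb apart. Dmp1, which encodes dentin matrix protein and lies further from Spp1 than Ibsp does, at 104202613 to 104214102, was lower in the GANT61-labelled library like Ibsp. It had 846 and 4120 reads, or 14.9 and 65.8 CPM, a ratio of 0.226 (0.210 to 0.244). Sparcl1, a matrix protein gene at the far flank, had 10574 and 19828 reads and a ratio of 0.587 (0.574 to 0.601). Pkd2, a cation channel gene 18.4 kb beyond the end of Spp1, had 4375 and 5194 reads and a ratio of 0.928 (0.891 to 0.966), which is neither higher nor lower. The cluster members Dspp and Mepe, of tooth and bone, had 2 and 0 reads and 0 and 1 read, at or under the 3 reads that a count of 0 allows, so no ratio is given for them. Spp1 was thus the only one of the 5 genes with a ratio above 1.

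**Figure D4:**
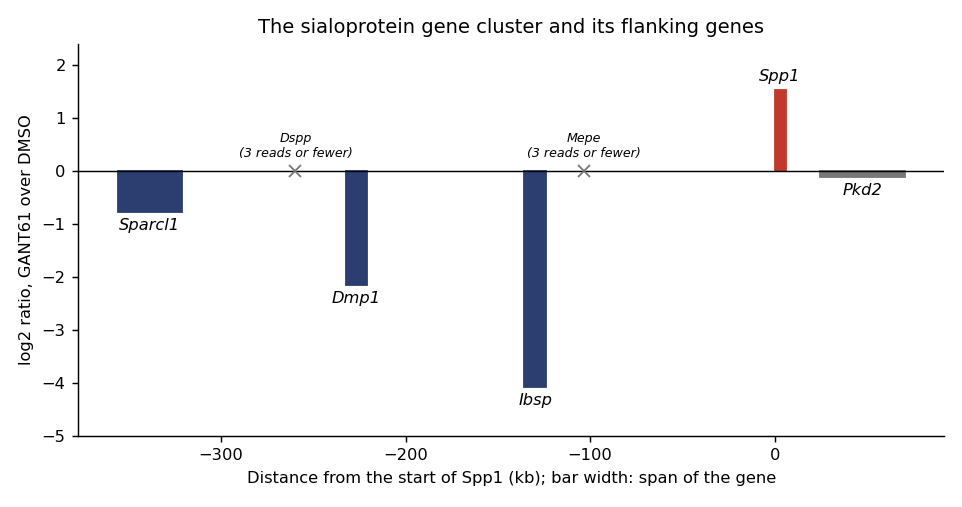
The log2 ratio, GANT61 over DMSO, of Spp1, Ibsp and 5 neighbouring genes against the distance of each gene from the start of Spp1 in kb; bar width is the span of the gene. Spp1 points up (1.53), Sparcl1, Dmp1 and Ibsp point down (-0.77, -2.14 and -4.08), and the crosses mark Dspp and Mepe, with 3 reads or fewer.

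Genes of osteoblasts, the bone-forming cells in which Ibsp is best known, showed no like difference. Of 11 measured osteoblast and mineralised matrix genes, 6 were above the floor and 0 of them were called, with a median log2 ratio of -0.03. The collagen genes Col1a2 and Col1a1, which fibroblasts express as well, had ratios of 1.08 (1.07 to 1.09) and 1.17 (1.16 to 1.18). The 4 osteoblast genes with the fewest reads are given here after their values were seen. Bglap, which encodes osteocalcin, had 0 reads in both libraries. By the unscaled library totals this allows up to 0.0520 CPM in the GANT61-labelled and 0.0487 CPM in the DMSO-labelled library. Sp7, the osteoblast factor osterix, had 0 and 1 read, Bglap2, a close copy of Bglap, had 1 read in each, and Dlx5, a homeobox factor, had 8 and 9 reads. Among the 8 marker lists, the adipocyte markers had the lowest median, at -2.73. Which cells expressed Ibsp and Dmp1 was not tested.

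Receptors for osteopontin and bone sialoprotein were expressed in both libraries. In the GANT61-labelled library 3 of 10 were higher and none (0) lower, beside 14.1% and 10.3% of all genes, and their median log2 ratio was 0.48. Itga9, an integrin alpha chain that binds osteopontin, had 5176 and 1763 reads, a ratio of 3.23 (3.06 to 3.41). Itgb3, which with Itgav forms the main integrin of osteoclasts, had 4227 and 2063 reads, a ratio of 2.26 (2.14 to 2.38). Itgb6, a beta chain of epithelium, had 525 and 361 reads, a ratio of 1.60 (1.40 to 1.84).

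Other effector genes of osteoclasts, which acidify and degrade bone matrix, are described beside the 14.1% of all genes and the 11 of 11 macrophage markers that were higher in the GANT61-labelled library. The list of 14 effectors had 8 higher, 0 lower, 4 neither and 2 below the floor, and the median log2 ratio of the 12 above it was 0.69. Atp6v0d2, a proton pump subunit that also takes part in fusion, had 3169 and 746 reads, a ratio of 4.68 (4.32 to 5.07). Mmp9, a gelatinase, had a ratio of 4.29 (4.19 to 4.39), at 595 and 139 CPM, and Ctsk, the protease cathepsin K, of 3.91 (3.80 to 4.02), at 394 and 101 CPM. Calcr, the calcitonin receptor that marks mature osteoclasts, was below the floor with 10 and 1 reads, as was Siglec15 with 35 and 12 reads. These 2 were named after their values were seen.

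RANK signalling intermediates had 2 of 17 genes higher and 0 lower, near the background of 14.1% higher and not a result about them. Their median was 0.19. Gab2, an adaptor of RANK, had a ratio of 2.06 (1.94 to 2.19) and Traf6 of 1.51 (1.43 to 1.60), the latter just past the threshold. Of 13 transcription factors with a role in osteoclasts, 6 were higher and 1 was lower, beside 14.1% and 10.3% of all genes; their median was 0.38. Prdm1, a repressor of genes that block osteoclast formation, had a ratio of 2.95 (2.74 to 3.18). The AP-1 family genes Fosl1 and Batf had ratios of 2.50 (2.15 to 2.93) and 1.92 (1.73 to 2.13), and Spi1, which encodes the macrophage factor PU.1, of 1.87 (1.80 to 1.94). The lower gene was Fos, at 0.636 (0.615 to 0.657), named after its value was seen.

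Repressors of osteoclast formation had a median log2 ratio of 0.12 over the 9 above the floor. Id3, an inhibitor of helix-loop-helix factors, was the lower gene of this list, with 2227 and 4087 reads and a ratio of 0.600 (0.570 to 0.632).

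The list of immunoreceptor costimulation genes, to which Oscar is related by function, held 10 higher and 0 lower genes of 12, beside 14.1% and 10.3% of all genes, at a median of 1.07. Syk, the kinase of this pathway, had a ratio of 2.57 (2.48 to 2.67) and Trem2 of 2.43 (2.32 to 2.54). Sirpa, one of the inhibitory receptors that the list also holds, had a ratio of 2.41 (2.35 to 2.47). Fcer1g, the signalling chain with which Oscar pairs, had a ratio of 2.22 (2.12 to 2.32), while Oscar itself was at 17.7. Macrophages in general express these genes, and the macrophage markers also had a median of 1.07. The part of macrophages in these ratios was not tested. The 2 genes of the list called neither had ratios below 1, Plcg2 at 0.745 (0.725 to 0.764) and Vav3 at 0.770 (0.737 to 0.804). They were named after their values were seen. Among 10 other partners of the axis, 2 were higher and none (0) was lower, beside the same background; the 9 above the floor had a median of 0.40. Tnf, a cytokine that acts with RANKL, had 487 and 161 reads, a ratio of 3.32 (2.78 to 4.01). Csf1r, the M-CSF receptor and one of the macrophage markers, had a ratio of 2.61 (2.57 to 2.65).

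**Figure D5:**
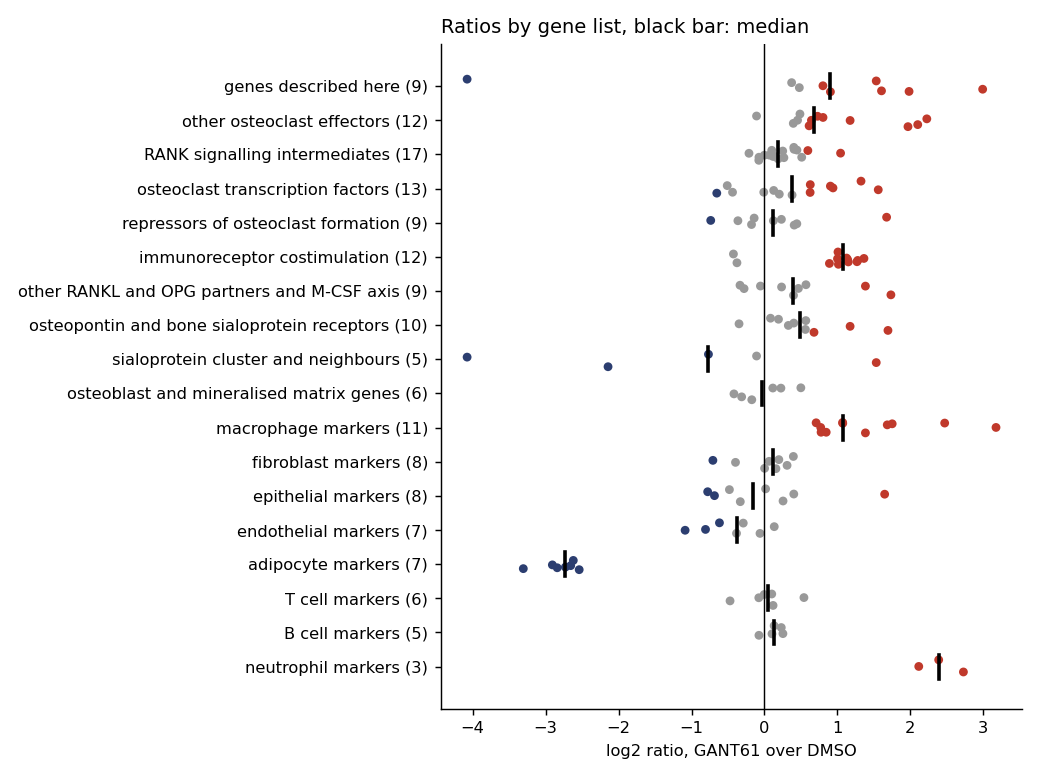
The log2 ratio, GANT61 over DMSO, of each gene averaging 1 CPM or more, by gene list, with the number of such genes in brackets; red points were higher and blue points lower by the rule of size, and black bars are medians. The effector and costimulation lists lie to the right (0.69 and 1.07) near the macrophage markers (1.07), RANK signalling intermediates lie near 0 (0.19), and adipocyte markers lie to the left (-2.73).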

How the data were processed

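The authors deposited 2 tables, one of estimated counts of reads per gene, left unnormalized, and one of RPKM values (reads per kilobase of gene model per 1000000 reads). Builds hg19 and mm10 and the tools cutadapt, STAR, HISAT2, Partek and SAMtools appear in the submitters' processing notes. What each was used for, the counter, the annotation and the strand setting are not given in the sources used here. Columns were tied to libraries by the treatment in their names, since the numbers in the names and titles differed. Expected counts were rounded to whole numbers and scaled with TMM factors (edgeR 4.0.16, R 4.3.3). Ratios used a prior count of 0.5 per library. Their 95% intervals are exact Clopper-Pearson intervals, or exact conditional intervals for quotients of 2 genes (scipy 1.17.1), and leave out all error but counting, and without molecular identifiers the reads are not independent molecules. The scripts were tested on simulated data. Coordinates of genes are from GENCODE M21 (mm10). The 10 genes, 9 pathway lists and 8 marker lists were chosen with earlier results of these data known. Named were all 10 genes, up to 4 called genes by size of ratio per pathway list (the 2 most abundant where none was called), the 2 most abundant of the marker lists and every gene of the sialoprotein cluster. Of the marker genes, only macrophage and adipocyte examples are printed. No genes of like pattern are named, since likeness over 2 libraries is a ratio only. A result that the naming rule gives is not reported here. The list entries Sost and Trac were not analysed here. Alternatives were DESeq2 1.42.0 size factors, total counts, deposited RPKM, a prior count of 2, a fold of 2, other floors and TMM on genes above the floor. Other steps used Python 3.11.15, numpy 2.4.6, pandas 2.3.3 and matplotlib 3.10.9.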

Additional observations from a re-analysis of the deposited data

How the results depend on the processing

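Under the 8 alternatives, the 10 genes gave 4 to 7 higher and 1 lower. The 4 came from a fold threshold of 2, which drops Acp5 and Tnfrsf11a, and from a floor of 5 CPM, which drops Ocstamp and Dcstamp. The 7 came from having no floor, which adds Oscar. Over all genes a fold threshold of 2 left 972 higher and 595 lower, in place of 1972 and 1436. Other scalings and the prior count of 2 changed no call among the 10 genes, and 48 of 50 ratios stayed inside the counting interval. The exceptions were Acp5 at 1.69 and Spp1 at 2.80 with total count scaling. The ratio of Oscar, which rests on 6 reads in the DMSO-labelled library, ranged from 14.6 to 19.0, and that of Ibsp from 0.0575 to 0.0605. Depth limits Oscar, Dspp, Mepe and the 5 osteoblast genes below the floor. No paired analysis was possible because each group held 1 library.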
